A study of Mus musculus with 6 samples.

Results

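The HoxD cluster with Evx2 was examined for binding of Ezh2 in mouse Th1 and Th2 cells. Its 10 genes are Evx2, Hoxd13, Hoxd12, Hoxd11, Hoxd10, Hoxd9, Hoxd8, Hoxd4, Hoxd3 and Hoxd1. The cluster was taken as chromosome 2 from 74485001 to 74608000 in the genome build mm9, which is 123 bins of 1 kb of the 2463072 bins on chromosomes 1 to 19 and X that held at least 1 deposited interval. Positions in that build were at hand for Evx2 (near 74491000), Hoxd13 (near 74506000) and Hoxd1 (near 74601000). The other 7 genes are placed here only by gene order, which RefSeq's annotation of GRCm38.p6 gives as Evx2, Hoxd13, Hoxd12, Hoxd11, Hoxd10, Hoxd9, Hoxd8, the overlapping Hoxd3 and Hoxd4, and Hoxd1, so that 7 members lie between the positions of Hoxd13 and Hoxd1. The same order puts the noncoding RNA genes Hoxd3os1, Mir10b and Haglr inside the cluster. It names Lnpk as the nearest protein-coding gene before Evx2 and Mtx2 as the nearest after Hoxd1.

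Naive CD4 T cells (CD44 low, CD62L high) from the spleens of C57BL/6 mice had been cultured for 5 days with IL-2. Antibodies to TCRβ and CD28 were present for the opening 2 days. Th1 cultures received IL-12 and an antibody to IL-4, and Th2 cultures received IL-4 and an antibody to IFN-γ. Each cell type gave chromatin precipitated with a polyclonal antibody to Ezh2, chromatin precipitated with a rabbit IgG control antibody, and input DNA, in 1 library per group. The labels do not say how many mice or cultures a library holds. Without replicates, each interval and test below covers counting error and compares libraries, not cell types. No transcripts were measured, so the labelled cell types could not be checked against their markers, nor the genes of the cluster for transcription. Distinct deposited intervals (called positions below) on the chromosomes used numbered 10809666 for Ezh2, 9326717 for the control antibody and 15578675 for input in Th1. In Th2 they numbered 14963599 for Ezh2 and 12862628 for input. The Th2 control antibody was not used here, because its file held no lines on chromosome 2.

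Ezh2 is an enzyme of Polycomb repressive complex 2 (PRC2). The complex methylates lysine 27 of histone H3 at genes that are kept silent. Hox genes encode homeodomain transcription factors that set position along the body axis. They are textbook PRC2 targets in cells where they are silent. In the mouse embryo the genes at the Hoxd13 end of the cluster act in the digits, the genitals and the end of the trunk, and those at the Hoxd1 end act further forward. Among the genes between them, Hoxd11 acts with Hoxa11 in the forearm, Hoxd9 and Hoxd10 act in the hindlimb and its motor nerves, and Hoxd3 and Hoxd4 shape the vertebrae of the neck. Evx2 encodes a homeodomain protein of the even-skipped family and is the neighbour of Hoxd13. Mammalian PRC2 is known to gather at CpG-rich promoters that are not transcribed.

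The promoters of the members are shown for their CpG content, which the reads did not enter. RefSeq promoter windows run from 250 bases before to 50 bases after a gene's start, in GRCm38.p6. These coordinates are of another build than the reads, and no coordinate was carried from one build to the other. All 10 genes matched, with 11 windows, since Hoxd11 has 2. The windows of the 3 members with an mm9 position are printed below with every CpG in capitals, followed by that of Hoxd4, which has few. The Evx2 window is chr2:74659508-74659807 on the minus strand, that of Hoxd13 chr2:74667975-74668274, that of Hoxd1 chr2:74762730-74763029 and that of Hoxd4 chr2:74721728-74722027, all 3 on the plus strand.

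Evx2: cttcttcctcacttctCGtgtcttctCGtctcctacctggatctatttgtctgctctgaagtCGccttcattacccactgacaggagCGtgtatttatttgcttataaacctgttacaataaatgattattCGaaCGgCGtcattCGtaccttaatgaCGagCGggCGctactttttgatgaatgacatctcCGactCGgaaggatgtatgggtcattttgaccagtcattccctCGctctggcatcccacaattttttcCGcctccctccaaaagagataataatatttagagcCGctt
Hoxd13: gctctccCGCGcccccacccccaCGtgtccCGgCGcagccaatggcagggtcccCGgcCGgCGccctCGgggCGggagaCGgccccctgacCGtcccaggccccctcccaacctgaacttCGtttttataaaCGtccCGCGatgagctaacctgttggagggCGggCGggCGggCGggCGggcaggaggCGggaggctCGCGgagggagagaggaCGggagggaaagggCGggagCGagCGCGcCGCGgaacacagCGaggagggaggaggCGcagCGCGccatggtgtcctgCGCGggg
Hoxd1: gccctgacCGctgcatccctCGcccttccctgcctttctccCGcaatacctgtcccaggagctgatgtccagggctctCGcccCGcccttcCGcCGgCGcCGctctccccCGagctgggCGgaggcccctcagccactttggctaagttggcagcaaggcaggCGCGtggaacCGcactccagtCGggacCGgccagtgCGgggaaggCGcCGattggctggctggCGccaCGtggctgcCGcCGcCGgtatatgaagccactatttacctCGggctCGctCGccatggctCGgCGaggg
Hoxd4: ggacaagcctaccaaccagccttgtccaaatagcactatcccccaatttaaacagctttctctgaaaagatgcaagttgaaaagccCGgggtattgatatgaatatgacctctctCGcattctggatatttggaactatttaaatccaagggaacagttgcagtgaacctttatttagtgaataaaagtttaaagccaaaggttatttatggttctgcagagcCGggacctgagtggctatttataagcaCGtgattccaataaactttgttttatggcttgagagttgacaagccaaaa

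The Hoxd13 window held 37 CpG in 300 bases at a GC content of 74.3%, and 5.58% of the 32851 promoter windows in the table held at least as many. The Hoxd1 window held 29 CpG (12.9% of all windows at or above it) and that of Evx2 16 (33.0%), the last at a GC content of only 44.3%. Between these came Hoxd11 with 25 in its second window, Hoxd10 with 22, and Hoxd9 and Hoxd3 with 20 each. Hoxd12 held 13, Hoxd8 held 6, and Hoxd4 and the first window of Hoxd11 held 4 each. The median over the 11 windows was 20 CpG, against 7 over all windows of the table, and 8 of the 11 stood at or above the median of all windows. The motif searched was CG, which reads the same on both strands.

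**Figure D1:**
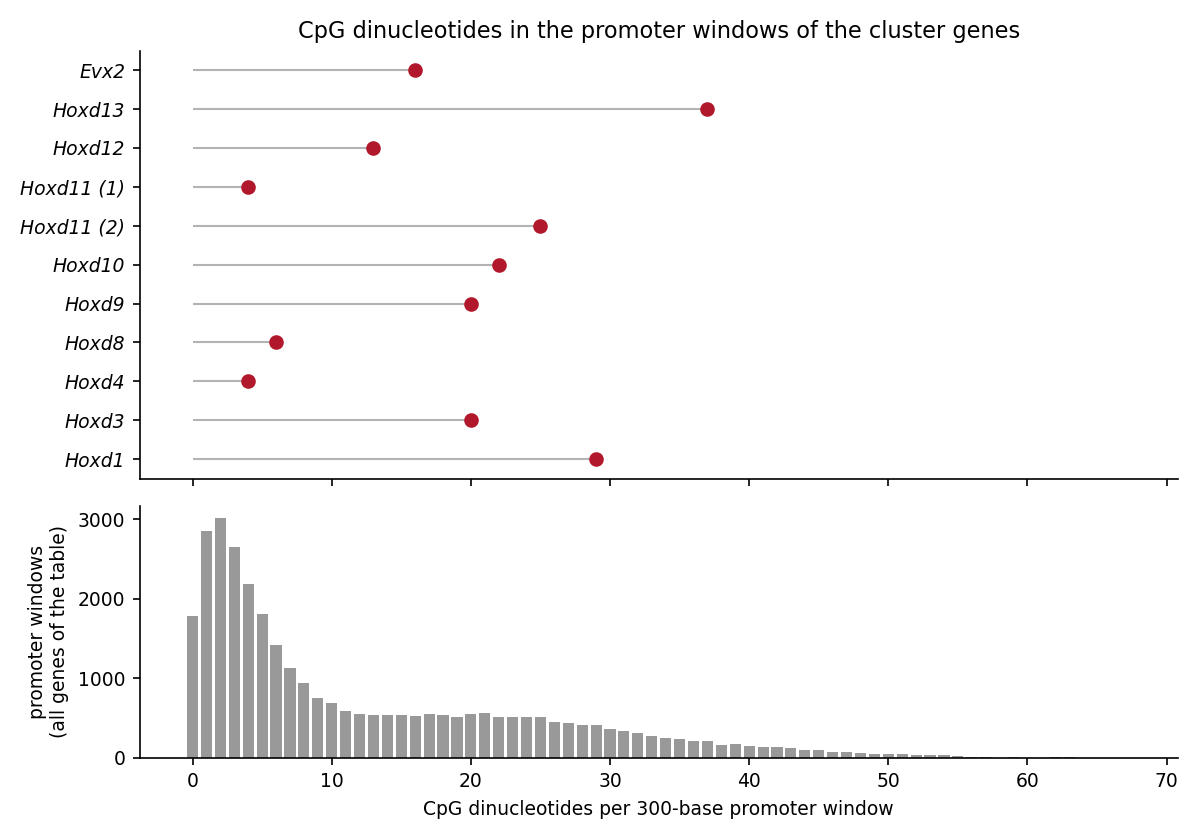
CpG dinucleotides in the 300-base RefSeq promoter window of each gene of the cluster (upper panel, 1 point per window, in gene order) and in all 32851 windows of the table (lower panel, number of windows at each count). Hoxd13 stands highest at 37, and Hoxd4 and the first Hoxd11 window lowest at 4.

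The first question was how much Ezh2 the cluster carried over input. Ezh2 lay along nearly its whole length in both cell types. In Th1, 5726 Ezh2 positions stood against 909 input positions, which was 9.08-fold over input after scaling to the library totals (95% exact interval 8.46–9.75). In Th2, 10823 Ezh2 positions stood against 764 input positions, or 12.2-fold (11.3–13.1). The Th1 control antibody gave 525 positions in the same cluster, which was 0.965-fold over input (0.865–1.08). The control library therefore held no excess here that could be seen at this depth.

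Per 1000000 library positions and per kb, the level was 4.31 Ezh2 positions in Th1 and 5.88 in Th2, against inputs of 0.474 in Th1 and 0.483 in Th2. In Th1 the Ezh2 library held 2.09 reads per position in the cluster and 2.24 over the chromosomes used, and in Th2 1.99 and 2.04.

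A bin of 1 kb was called when Ezh2 was at least 2-fold over input and the adjusted p was below 0.05, by the exact binomial test, one-sided, with Benjamini-Hochberg adjustment across the tested bins of the genome. In Th1, 102 of the 123 bins were called (82.9%), where 0.992% of the 1332288 tested bins of the genome were. In Th2, 112 were called (91.1%), where 1.21% of 1414330 were. The control antibody gave 0 called bins in the cluster, of which 86 had enough positions to be tested, and 0.00151% over the genome. The median fold over the bins of the cluster was 7.99 in Th1 and 11.2 in Th2, against 1.01 in Th1 and 0.974 in Th2 over all tested bins.

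Of the 123 bins, 99 were called in both cell types, 3 in Th1 only, 13 in Th2 only and 8 in neither. The overlap of calls over the whole genome was not counted. There too a larger share of tested bins was called in Th2 (1.21%) than in Th1 (0.992%), and the Th2 Ezh2 library held more positions. The 8 uncalled bins lay in 3 places, from 74555001 to 74557000, from 74593001 to 74598000 except for 74595001 to 74596000, and from 74606001 to 74608000 at the Hoxd1 limit. The bin at 74595001 to 74596000 was called in Th2 with 38 Ezh2 against 2 input positions, and was not called in Th1 with 17 against 14. In the 8 bins, Ezh2 held between 6 and 18 positions in Th1 and between 11 and 31 in Th2.

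**Figure D2:**
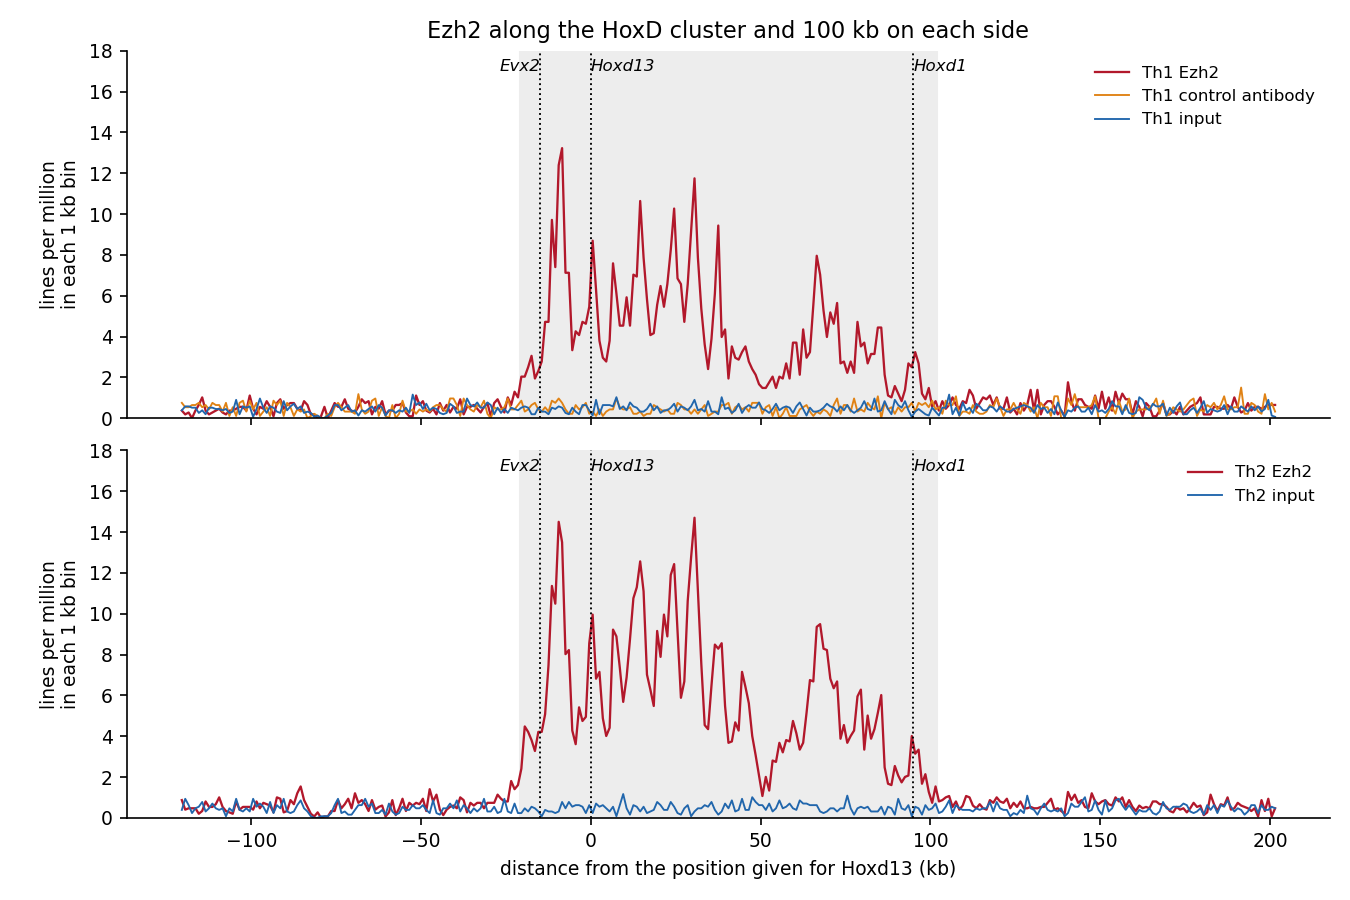
Positions (lines, as the axis names them) per 1000000 library positions in each 1 kb bin of the cluster (grey) and of 100 kb on each side, for Ezh2 (red), the control antibody (orange, Th1 panel) and input (blue), against distance in kb from the position given for Hoxd13. The Th1 Ezh2 line (upper panel) reaches 13.2 and the Th2 Ezh2 line (lower panel) 14.7, and both run back to near the input outside the grey area.

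Within the cluster the signal was uneven, with separate peaks and a low stretch. In Th1 the Ezh2 count of a bin ran from 6 to 143 positions with a median of 40, and in Th2 from 11 to 220 with a median of 76. Input held a median of 7 positions a bin in Th1 (1 to 16) and 6 in Th2 (1 to 15). The control antibody held a median of 4 (0 to 10). With so few input positions, peaks were read from the Ezh2 positions.

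A bin was taken as a peak when it held the most Ezh2 positions within 3 bins on each side and stood above the median of the cluster. This gave 12 such bins in Th1 and 11 in Th2. Of the 12 in Th1, 11 had a Th2 peak within 1 kb, and 6 fell in the same bin. Among these, the neighbouring Th1 bins at 74590001 and 74591001 tied at 48 positions, and both matched 1 Th2 peak. Across the 123 bins, the Ezh2 positions of Th1 and Th2 had a Pearson correlation of 0.928 and a Spearman correlation of 0.920. The bins of both share the same stretch of genome, and the correlation is a description. The inputs of Th1 and Th2 over the same bins had a Pearson correlation of -0.0864, and Th1 Ezh2 and the Th1 control antibody one of -0.0842.

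The strongest peak in Th1 lay 8.5 kb before the position given for Hoxd13, where the bin from 74497001 to 74498000 held 143 Ezh2 against 8 input positions. In Th2 the neighbouring bin from 74496001 to 74497000, 9.5 kb before it, held 217 Ezh2 against 4 input positions. In GRCm38.p6 the start of Evx2 lies 8.7 kb before that of Hoxd13, while the mm9 positions given for the genes are 15 kb apart. This peak may therefore hold the start of Evx2, and the position given for Evx2 may not. The bin from 74506001 to 74507000, which starts at the position given for Hoxd13, was a peak in both, with 94 Ezh2 against 2 input positions in Th1 and 149 against 3 in Th2. Hoxd13 encodes the Hox protein of the digits and of the hindmost trunk.

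Between Hoxd13 and Hoxd1, where the other 7 Hoxd genes lie, peaks of both cell types fell in the same bins at 74512001, 74520001, 74530001 and 74536001. The peak at 74520001 to 74521000 held 115 Ezh2 positions in Th1 and 188 in Th2, and that at 74536001 to 74537000 held 127 in Th1 and 220 in Th2, the highest Th2 count of the cluster. A further peak fell at 74543001 in Th1 (102 positions) and at 74544001 in Th2 (128). Over the 89 kb from 74509001 to 74598000, between the windows used below for Hoxd13 and Hoxd1, Ezh2 was 8.52-fold over input in Th1 (7.86–9.24) and 12.2-fold in Th2 (11.2–13.3), with 74 of the 89 bins called in Th1 and 82 in Th2. The control antibody was 0.842-fold over input there (0.739–0.958). The centres of the shared peaks lay 6.5, 14.5, 24.5 and 30.5 kb after the position given for Hoxd13 in mm9. Within GRCm38.p6, the start of Hoxd12 lies 6.8 kb after that of Hoxd13, the second start of Hoxd11 14.1 kb, Hoxd10 23.7 kb and Hoxd9 29.5 kb. Hoxd8 lies 36.4 kb after it, where the mm9 peaks stood at 37.5 kb in Th1 and 38.5 kb in Th2. Hoxd3 lies 43.8 kb after it, where Th2 had a peak at 44.5 kb and Th1 had none. No peak stood within 1 kb of the same distance for the first start of Hoxd11 (11.3 kb), Hoxd4 (53.8 kb) or Hoxd1 (94.8 kb). By that limit Hoxd8 had none either, since its nearest peaks stood further off. The peaks from 66.5 to 85.5 kb stood at the distance of no member's start. The spacing of Hoxd13 and Hoxd1 is 94.8 kb in GRCm38.p6 and 95 kb in the mm9 positions. These distances are set side by side as a description, since no mm9 annotation was used here.

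Past these peaks came the low stretch. From 74555001 to 74565000 Ezh2 was 3.70-fold over input in Th1 (2.83–4.86) and 4.66-fold in Th2 (3.62–6.07), the lowest of the 12 windows of 10 kb in both. In the next window, from 74565001 to 74575000, it was back at 10.8-fold in Th1 (8.36–14.2) and 11.2-fold in Th2 (8.76–14.4). That window held a peak of 86 positions at 74572001 in Th1 and of 142 at 74573001 in Th2. Peaks nearer to Hoxd1 were lower, at 51 positions at 74584001 in Th1 and 94 at 74585001 in Th2, and at 48 positions at 74591001 in Th1 and 90 in the same bin in Th2. A peak of 61 positions at 74578001 was found in Th1 without a Th2 peak within 1 kb, and one of 107 at 74550001 in Th2 without a Th1 peak.

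**Figure D3:**
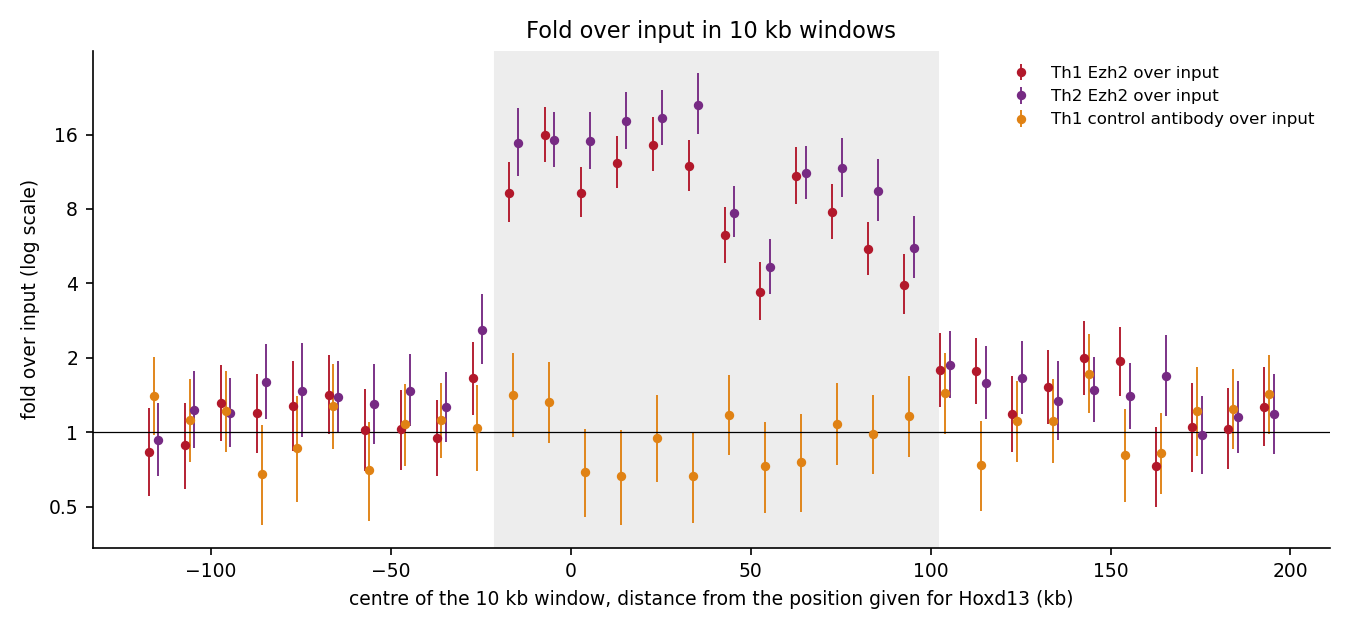
Fold over input, on a log scale, in windows of 10 kb across the cluster (grey) and its surroundings, with 95% exact intervals from counting error as bars, for Ezh2 in Th1 (red), Ezh2 in Th2 (purple) and the Th1 control antibody (orange). The 12 windows inside the cluster lie between 3.70 and 15.9 in Th1 and between 4.66 and 21.1 in Th2, and the flank windows between 0.729 and 1.99 in Th1 and between 0.933 and 2.60 in Th2.

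The second question was how the positions given for Evx2, Hoxd13 and Hoxd1 compared. Windows of 3 kb on each side were used, named below by their gene. Which part of the gene a position marks was not stated, and by the spacing above the Evx2 window may not hold the start of that gene. In the Evx2 window the 6 bins held 33, 21, 25, 30, 51 and 51 Ezh2 positions in Th1, and 57, 49, 63, 63, 76 and 112 in Th2. The counts were higher toward Hoxd13, and the bins next to the window, from 74494001 to 74500000, were higher still. Against input, the Evx2 window stood at 11.3-fold in Th1 (7.52–17.5) and 13.4-fold in Th2 (9.06–20.5). Its window held only 27 input positions in each cell type. The Th1 control antibody held 28 there, 1.73-fold over input (0.984–3.05), and with that library as the background the Th1 folds were 6.50 at Evx2, 14.2 at Hoxd13 and 3.87 at Hoxd1.

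At Hoxd13 the bins held 51, 50, 59, 94, 68 and 41 Ezh2 positions in Th1 and 71, 74, 128, 149, 102 and 107 in Th2. Over input, Hoxd13 stood at 11.6-fold in Th1 (8.51–16.2) and 14.7-fold in Th2 (10.5–21.0), with a control antibody at 0.817-fold (0.467–1.39). At Hoxd1, the gene at the anterior end of the cluster, the bins held 15, 29, 27, 35, 29 and 13 positions in Th1 and 30, 31, 60, 47, 50 and 25 in Th2. The fold was 5.76 in Th1 (3.998–8.50) and 7.20 in Th2 (4.89–11.0), with a control antibody at 1.49-fold (0.903–2.45). All 6 bins were called at Evx2 and at Hoxd13 in both cell types, and at Hoxd1 4 were called in Th1 and 5 in Th2.

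Over input, the difference between the Evx2 and Hoxd13 windows was within counting error, and the Hoxd1 window was lower than either. The comparison is of these windows and not of the promoters, and it depends on the background. With the Th1 control antibody as background, Evx2 stood at 6.50-fold (4.37–10.0) and Hoxd13 at 14.2-fold (9.26–23.0) in Th1. The difference on that background was not tested. Per 1000000 library positions and per kb, the Ezh2 level was 5.597 at Hoxd13, 3.25 at Evx2 and 2.28 at Hoxd1 in Th1, and 7.03 at Hoxd13, 4.68 at Evx2 and 2.71 at Hoxd1 in Th2. A conditional exact test was run on 12 pairs within the cluster, with Benjamini-Hochberg adjustment over them. The fold of Evx2 over that of Hoxd13 was 0.969 in Th1 (0.569–1.68, exact test, adjusted p = 0.998) and 0.912 in Th2 (0.532–1.58, exact test, adjusted p = 0.894). The fold of Hoxd13 over that of Hoxd1 was 2.02 in Th1 (1.21–3.33, exact test, adjusted p = 0.0104) and 2.04 in Th2 (1.18–3.48, exact test, adjusted p = 0.0153). The fold of Evx2 over that of Hoxd1 was 1.95 in Th1 (exact test, adjusted p = 0.0271) and 1.86 in Th2 (exact test, adjusted p = 0.0455).

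Stretches of 41 kb, which belong to the same 12 pairs, also differed in this order. The fold did not decline steadily within them: by windows of 10 kb the highest in Th2 was 21.1-fold in the middle stretch, which also held the lowest at 4.66-fold. The 41 kb at the Evx2 end, from 74485001 to 74526000, stood at 11.5-fold over input in Th1 (10.2–13.1) and 15.7-fold in Th2 (13.7–17.9). The middle 41 kb stood at 9.06-fold in Th1 (8.03–10.2) and 12.0-fold in Th2 (10.6–13.7). The 41 kb at the Hoxd1 end stood at 6.59-fold in Th1 (5.81–7.50) and 8.98-fold in Th2 (7.88–10.3). The Evx2 end over the Hoxd1 end was 1.75 in Th1 (1.47–2.09, exact test, adjusted p = 4.60e-09) and 1.74 in Th2 (1.45–2.10, exact test, adjusted p = 2.37e-08). The control antibody did not follow this order, at 0.977-fold over input at the Evx2 end, 0.843-fold in the middle and 1.08-fold at the Hoxd1 end. Within each cell type, each stretch differed from the next, with adjusted p between 0.00161 and 0.0104 by the exact test.

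The third question was where the domain ended. On both sides the signal fell within 10 kb of the limits. At the Evx2 limit, the 10 kb inside held Ezh2 at 9.30-fold over input in Th1 (7.07–12.4) and 14.8-fold in Th2 (10.9–20.5). The 10 kb outside held it at 1.65-fold in Th1 (1.18–2.31) and 2.60-fold in Th2 (1.89–3.61), where the other 90 kb of that flank stood at 1.09-fold in Th1 (0.965–1.23) and 1.296-fold in Th2 (1.16–1.45). The first bin inside had 22 Ezh2 against 8 input positions in Th1 and 36 against 3 in Th2, and the first bin outside 11 against 6 in Th1 and 24 against 3 in Th2, where it was called.

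At the Hoxd1 limit the change was smaller. The 10 kb inside stood at 4.95-fold in Th1 (3.65–6.82) and 4.95-fold in Th2 (3.72–6.67), where the control antibody was 1.73-fold over input (1.17–2.55). The 10 kb outside stood at 1.54-fold in Th1 (1.11–2.14) and 1.84-fold in Th2 (1.33–2.57). The first bin inside had 9 Ezh2 against 5 input positions in Th1 and 23 against 9 in Th2, and the first bin outside 4 against 2 in Th1 and 12 against 3 in Th2.

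Called bins that lay at most 1 bin apart were joined into runs. The main run spanned 70 kb in Th1, from 74485001 to 74555000, and 73 kb in Th2, from 74482001 to 74555000. A second run spanned 34 kb in Th1, from 74558001 to 74592000, and 36 kb in Th2, from 74557001 to 74593000. Around Hoxd1 a run of 4 kb in Th1 (74599001 to 74603000) and of 7 kb in Th2 (74598001 to 74605000) followed, and single called bins lay at 74605001 in Th1 and at 74595001 in Th2. The break between the first and second run was the low stretch, and whether it was bridged depended on the settings: with 2 bins of gap allowed, the Th2 runs joined into 123 kb.

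In the 100 kb on each side, Ezh2 lay above input by far less than in the cluster. Before the cluster it was 1.15-fold in Th1 (1.02–1.28) and 1.42-fold in Th2 (1.28–1.57), with 0 called bins in Th1 and 3 in Th2. After the cluster it was 1.38-fold in Th1 (1.24–1.54) and 1.39-fold in Th2 (1.25–1.54), with 1 called bin in Th1 and 0 in Th2. When the totals came from the less enriched windows (background scaling), it was 1.63-fold in Th1 and 1.99-fold in Th2 before the cluster, and 1.97-fold in Th1 and 1.95-fold in Th2 after it. Those windows were picked for an Ezh2 to input ratio below the median, so this scaling raises every fold by construction. The control antibody in Th1 stood 1.05-fold over input before the cluster (0.933–1.19) and 1.13-fold after it (1.00–1.27). Of the called flank bins, 2 in Th2 lay within 3 kb of the Evx2 limit, and the others were single bins at 74458001 in Th2 and at 74646001 in Th1.

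The fourth question was whether the Th1 and Th2 libraries differed in the cluster. Ezh2 over input was lower in the Th1 libraries than in the Th2 ones in each stretch of 41 kb. The fold in Th1 over that in Th2 was 0.746 for the whole cluster (0.673–0.826), with an adjusted p of 1.19e-07 over 16 stretches. The exact test was conditional on the totals and took in Ezh2 and input of each cell type. Some of the 16 stretches overlap. The ratio was 0.738 at the Evx2 end, 0.752 in the middle and 0.735 at the Hoxd1 end, with adjusted p of 0.00372, 0.00430 and 0.00372 by the exact test. Of the 123 bins, 10 held more scaled Ezh2 positions in Th1 and 113 held more in Th2. This count leaves out input, its bins are not replicates, and the same count over the genome was not made. In the windows named by their gene, the ratio was 0.842 for Evx2 (0.463–1.54), 0.793 for Hoxd13 (0.489–1.28) and 0.8003 for Hoxd1 (0.455–1.40), and these intervals include 1. The Evx2 window may not hold the start of that gene. Over the 89 kb between the windows of Hoxd13 and Hoxd1 it was 0.698 (0.620–0.786, exact test, adjusted p = 2.77e-08). In the last 10 kb at the Hoxd1 end it was 1.00 (0.650–1.55). Outside the cluster it was 0.809 in the 100 kb before Evx2 (0.693–0.946, exact test, adjusted p = 0.0198) and 0.996 in the 100 kb after Hoxd1 (0.857–1.16). Without the 10 kb next to the cluster, the flank before Evx2 stood at 0.841 (0.712–0.994, exact test, adjusted p = 0.0837).

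The 12 windows of 10 kb were set beside all 249607 tested windows of that size. The ratio of Th1 to Th2 lay below 1 in 11 of the 12, with a median of 0.693 and a range of 0.566 to 1.05. By the conditional exact test with Benjamini-Hochberg adjustment, 0 of the 12 passed, where 0.0112% of all windows were higher in Th1 and 0.0132% higher in Th2, 0.0244% in all. Without adjustment, 6 of the 12 had p below 0.05. With all reads 7 passed, and with the Ezh2 positions alone or 1 input for both cell types 10 passed. Without separate inputs, neither their counting error nor their scaling enters the test. Why the counts differ was not tested. How many of all windows had unadjusted p below 0.05, or passed under these other settings, was not counted. The lowest ratio was that of the window from 74535001 to 74545000, at 11.9-fold in Th1 (9.49–15.2) and 21.1-fold in Th2 (16.007–28.3), with an adjusted p of 0.337. The single window above 1 ran from 74495001 to 74505000, which holds the peak 8.5 to 9.5 kb before the position given for Hoxd13, at 15.9-fold in Th1 (12.4–20.7) and 15.1-fold in Th2 (11.8–19.7).

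In 3364 windows of 10 kb Ezh2 reached 2-fold over input in Th1 as well as in Th2, and there the median ratio of Th1 to Th2 was 0.876. Relative to that median, the cluster stood at 0.851 (0.768–0.944, exact test, p = 0.00203). That test took the median as a fixed value, from shorter windows that needed to reach only 2-fold. Ezh2 reached 4-fold over input in Th1 and in Th2 in 15 other windows of 123 kb. Of these, 15 had a ratio below 1, with a range of 0.642 to 0.904 and a median of 0.790, and 1 lay below the cluster. The interval of the cluster's own ratio (0.673–0.826) includes that median of 0.790. Cell type, sequencing run and efficiency of the pull-down cannot be told apart with 1 library each.

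Set against the rest of the genome, the cluster was among the most enriched stretches of its length. Of 20258 windows of 123 kb, laid end to end from the start of the cluster and with at least 400 input positions, it ranked 1 by fold over input in Th1 and 2 in Th2. The median window stood at 0.880-fold in Th1 and 0.881-fold in Th2, and 16807 windows in Th1 and 16526 in Th2 held no called bin. That grid fits this cluster and can split other domains. With windows moved in steps of 1 kb, 2 other loci exceeded the cluster in Th1, the highest at 9.57-fold, and 1 in Th2, at 14.5-fold. On the end-to-end grid, the cluster ranked 13381 by the Th1 control antibody over input.

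**Figure D4:**
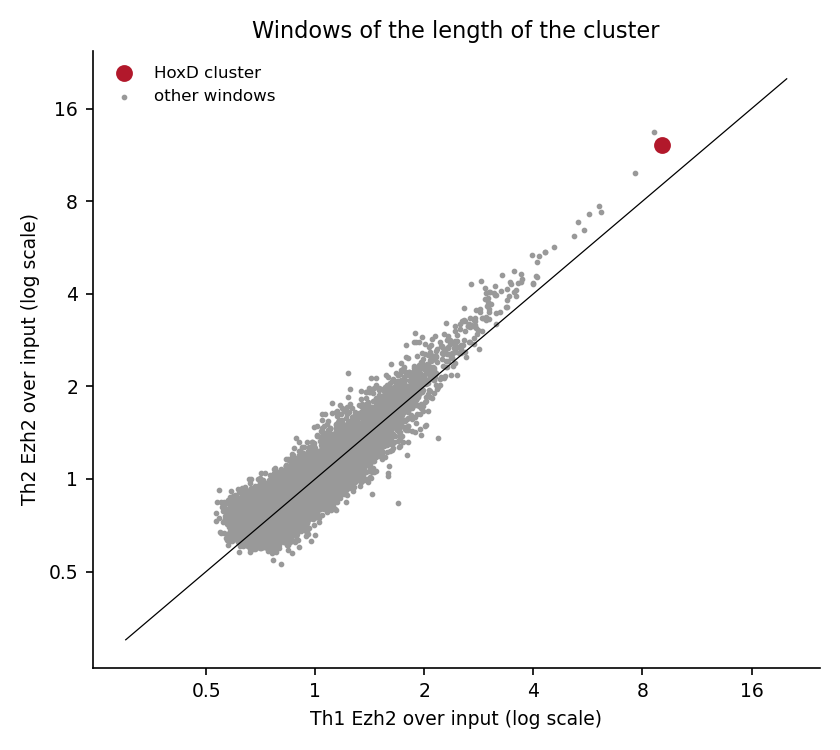
Fold over input of Ezh2 in Th1 (horizontal, log scale) and in Th2 (vertical, log scale) for 20258 windows of 123 kb; each grey point is a window, the red point is the HoxD cluster at 9.08 and 12.2, and the line marks equal folds. The cluster sits at the upper end, above the line like the other strongly enriched windows.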

How the data were processed

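Ezh2 chromatin, control antibody chromatin and input DNA of Th1 and Th2 cells had been sequenced, 1 library per group. The authors deposited unnormalized read counts, with 1 interval per line, no strand, and the reads on that interval. The submitters' processing notes name CASAVA and mm9. For alignment settings, read extension and filters: not given in the sources used here. Each interval was counted once, at its midpoint, per 1 kb bin, and scaled by the lines on chromosomes 1 to 19 and X. Bins with at least 10 lines over Ezh2 and input were tested, with 0.5 added to each count for the bin's fold. Intervals are exact (Clopper-Pearson, or conditional for ratios of folds) at 95%, from counting error only, and PCR reads without molecular identifiers are not independent. Tests were run on simulated data that held counting error only, with the outcome not reported here. Such data cannot show how the tests behave when libraries vary by more. All 10 members were named; bins were named as peaks, at the limits or for the shape of the profile. By the rule for single bins, the 3 highest folds were at 74506001, 74543001 and 74499001 in Th1 (54.5, 42.2 and 31.9) and at 74535001, 74513001 and 74517001 in Th2 (109.7, 76.5 and 45.2), on 1 to 3 input lines. The 3 lowest were at 74606001, 74597001 and 74598001 in Th1 (1.10, 1.61 and 1.65) and at 74606001, 74556001 and 74558001 in Th2 (1.52, 1.67 and 1.85). Members, limits and comparisons were chosen with earlier results of these data known; the peaks, stretches and windows of 123 kb were added after seeing the data. Python 3.11.15, numpy 2.4.6 and scipy 1.17.1 were used.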

Additional observations from a re-analysis of the deposited data

Results flagged for a closer look

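Ezh2 over input of the whole cluster differed between the Th1 and Th2 libraries by an exact test of the difference, which covers counting error only. The ratio of the Th1 fold to the Th2 fold was 0.746 (95% interval 0.673–0.826). With the inputs left out, the Ezh2 positions alone gave 0.732. It compares 1 library with 1 library, not the cell types, and the Ezh2 files carry different run labels. A ratio below 1 was not particular to this cluster. The 15 other windows of 123 kb at 4-fold or more in both cell types all lay below 1, with a median of 0.790.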

How the results depend on the processing

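No paired analysis was possible because there was 1 library per group, and no library could be left out. Of 101 values under an alternative for 22 results, 91 kept their direction and their side of the threshold or stayed within 1.5 times. The values with 1 input for both cell types repeat those of the Ezh2 positions alone, so the 101 are not all separate. The fold over input of the cluster ranged from 8.70 to 12.9 in Th1 and from 12.2 to 17.1 in Th2, the upper values with background scaling. That scaling raises every fold over input by construction. The number of called kb ranged from 85 to 115 in Th1 and from 104 to 120 in Th2. The ratio of Th1 to Th2 ranged from 0.664 with all reads to 0.851 relative to enriched windows. With the control antibody as background, Ezh2 in the 100 kb before the cluster was 1.09-fold in Th1 and no longer passed (exact test, p = 0.201). The main run was 111 kb in Th1 and 125 kb in Th2 with all reads, 108 kb and 124 kb with 2 kb bins, and 123 kb in Th2 with a gap of 2 bins. These settings join the runs across the low stretch. Of the 12 windows, 7 differed between Th1 and Th2 with all reads, and 10 with Ezh2 positions alone, as with the Th1 input or the Th2 input for both, where the input cancels. How many of all windows passed under these settings was not counted. Repeat reads are not independent, and without the inputs their counting error is left out. Equal depth was added after seeing the data and changed none of its 8 results. Depth limits single bins, with a median of 6 or 7 input positions.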
